A study of Mus musculus with 12 samples.

Results

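The 33 hypoxia and glycolysis genes were chosen by symbol: 16 enzymes of glycolysis with lactate dehydrogenase, 3 transporters of glucose and lactate, 3 kinases that set the rate of glycolysis or of pyruvate entry into mitochondria, and 11 other known targets of the hypoxia-inducible factors (HIF). All 33 were among the 18609 genes listed in each library, and all 33 passed the filter on low values that left 12164 genes, and would have done so on the PBS libraries alone. The data were RNA-seq libraries of tumours grown from MC38, a colon cancer line of the mouse, in 4 groups of 3 libraries. The groups were wild-type hosts given PBS (phosphate-buffered saline) or Salmonella, and TLR4 knockout hosts (called knockout hosts) given PBS or Salmonella. Hosts of both genotypes are labelled as C57BL/6 mice. Both agents were injected intravenously and the tumours were taken 1 day later. TLR4 is the receptor for the lipopolysaccharide of Gram-negative bacteria, and the labels place its knockout in the host and not in the tumour line. The Salmonella strain and the age of the hosts are not given in the labels, and whether a group's libraries stem from different animals is not stated either. The p-values thus speak of the spread among libraries, which may be technical.

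Glycolysis turns glucose into pyruvate, and lactate dehydrogenase turns pyruvate into lactate when oxygen is scarce or, in many tumours, in spite of oxygen. HIF is a pair of an alpha subunit (Hif1a or Epas1) and Arnt. When oxygen is present, prolyl hydroxylases of the Egln family mark the alpha subunit for destruction through the von Hippel-Lindau protein, and when oxygen is low the pair binds DNA at hypoxia response elements and raises its target genes. Most glycolytic enzymes are HIF targets themselves, but they are also driven by other factors and are abundant in most cells. The 11 other targets include genes that are known for a large response to low oxygen, such as Car9.

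The promoters of 5 genes with large changes in wild-type hosts, chosen after their values were seen, are shown because the common core of a hypoxia response element, ACGTG, can be read in them. Each runs from 250 bases before to 50 bases after the start of the gene, 5′ to 3′ on the strand of the gene, from RefSeq (build GRCm38.p6), with ACGTG or its reverse complement CACGT in capitals. The authors' build is not given in the sources used here, and no measurement was joined to these coordinates. Car9 lies at chr4:43506776-43507075 (plus strand), Egln1 at chr8:124949205-124949504 (minus strand), P4ha2 at chr11:54100674-54100973 (plus strand), Aldoc at chr11:78322823-78323122 (plus strand) and Pfkfb3 at chr2:11502041-11502340 (minus strand). The table held 2 starts each for Aldoc and Pfkfb3, and the one with the most matches is shown.
Car9: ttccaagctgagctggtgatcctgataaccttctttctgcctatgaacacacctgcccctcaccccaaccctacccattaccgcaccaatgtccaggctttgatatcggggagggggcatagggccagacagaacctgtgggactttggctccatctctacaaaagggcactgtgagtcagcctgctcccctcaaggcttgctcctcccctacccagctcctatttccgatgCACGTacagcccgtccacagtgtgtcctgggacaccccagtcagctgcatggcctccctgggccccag
Egln1: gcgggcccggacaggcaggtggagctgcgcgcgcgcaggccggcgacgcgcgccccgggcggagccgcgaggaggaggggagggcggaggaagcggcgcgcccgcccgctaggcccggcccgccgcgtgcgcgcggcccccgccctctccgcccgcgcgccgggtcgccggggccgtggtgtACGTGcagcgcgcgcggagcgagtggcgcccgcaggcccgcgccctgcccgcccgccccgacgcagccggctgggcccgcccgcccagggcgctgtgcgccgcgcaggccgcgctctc
P4ha2: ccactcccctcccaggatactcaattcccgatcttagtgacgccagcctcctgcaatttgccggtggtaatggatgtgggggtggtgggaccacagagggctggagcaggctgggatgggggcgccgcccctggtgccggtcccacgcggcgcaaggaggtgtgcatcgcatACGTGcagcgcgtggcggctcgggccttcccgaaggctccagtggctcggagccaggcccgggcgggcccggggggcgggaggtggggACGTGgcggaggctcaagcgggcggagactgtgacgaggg
Aldoc: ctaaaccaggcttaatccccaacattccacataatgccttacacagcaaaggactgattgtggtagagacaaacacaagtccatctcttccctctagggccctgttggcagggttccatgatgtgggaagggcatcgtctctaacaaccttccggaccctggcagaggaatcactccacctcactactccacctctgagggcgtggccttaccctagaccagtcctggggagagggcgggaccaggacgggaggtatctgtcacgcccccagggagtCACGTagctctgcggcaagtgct
Pfkfb3: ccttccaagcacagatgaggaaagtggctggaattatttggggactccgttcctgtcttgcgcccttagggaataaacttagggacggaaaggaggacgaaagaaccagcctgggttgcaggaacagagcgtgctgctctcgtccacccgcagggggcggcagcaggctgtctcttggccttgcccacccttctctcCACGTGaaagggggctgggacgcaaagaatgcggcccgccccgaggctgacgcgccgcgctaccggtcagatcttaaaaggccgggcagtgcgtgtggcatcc
In Pfkfb3 the 2 matches, 1 on each strand, overlap in the palindrome CACGTG. P4ha2 holds 2 separate matches, and the other 3 promoters hold 1 each.

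A promoter was found for 31 of the 33 genes (all but Ndrg1 and Slc2a3), and 22 of these 31 (71.0%) held ACGTG on either strand in at least 1 of their promoters. Of all 27025 genes in the table, 21.8% did, and of all 32851 promoters of this length, 19.6%. Among the other HIF targets 9 of 10 held it, Kdm3a being the exception, and among the enzymes 10 of 16. The genes that fell in wild-type hosts held it in 12 of 15 cases and those that did not pass the test in 9 of 15. Ldha, with 5 matches in 1 promoter, held the most of the 31 genes. A match is only a description of the letters in this window.

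Levels are given as scaled FPKM: the deposited FPKM (fragments per kilobase of gene and library total, so that genes can be compared) divided by a scaling factor per library. The 3 values of a group are always in the order F-1, M-1, M-2 of their titles. The libraries held 30514112 to 38769095 fragments on the listed genes. Of the 33 genes, 27 had at least 1000 fragments in every library, and the 3 with fewer than 200 in some library were Slc2a3, Aldoc and Eno2. The factors were 0.863 and 0.862 in F-1 and M-1 of wild-type hosts given Salmonella and 0.996 to 1.04 in the other 10 libraries. In the group of wild-type hosts given Salmonella, M-2 stood apart from the other 2 libraries, with root mean square log2 differences over the tested genes of 0.528 and 0.541 against 0.352 between F-1 and M-1. Markers of colon epithelium were close to 0 in all groups: 8 of them (Epcam, Krt8, Krt18, Krt19, Cdh1, Krt20, Vil1 and Cldn7) summed to 0.624 to 5.03 scaled FPKM per library, although the labels name colon cancer cells. Tlr4 itself was at 2.40 to 2.502 in wild-type and 1.54 to 3.04 in knockout hosts with PBS, and at 2.51 to 4.39 and 1.73 to 1.90 with Salmonella, so its total over the gene overlapped between genotypes under PBS and not under Salmonella.

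In wild-type hosts, Car9, Egln1, P4ha2 and other HIF targets were lower in tumours after Salmonella than after PBS, as were the hexokinases, while Pfkfb3 and Slc2a3 were higher. Of the 33 genes, 17 passed the test (limma, Benjamini-Hochberg over the 12164 tested genes, threshold 0.05), where 36% of all tested genes passed. Lower were 15, where 17.8% of all tested genes were lower, and higher were 2, where 18.2% of all were higher. The libraries of both groups did not overlap for 18 of the 33 genes, beside 45.6% of all tested genes. The median log2 change was -0.27 over the 33 genes and -0.026 over all tested genes. By role, 8 of the 11 other HIF targets and 6 of the 16 enzymes were lower, with medians of -0.47 and -0.24. In bulk tumours, fewer cells of a type and less RNA per cell cannot be told apart.

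**Figure D1:**
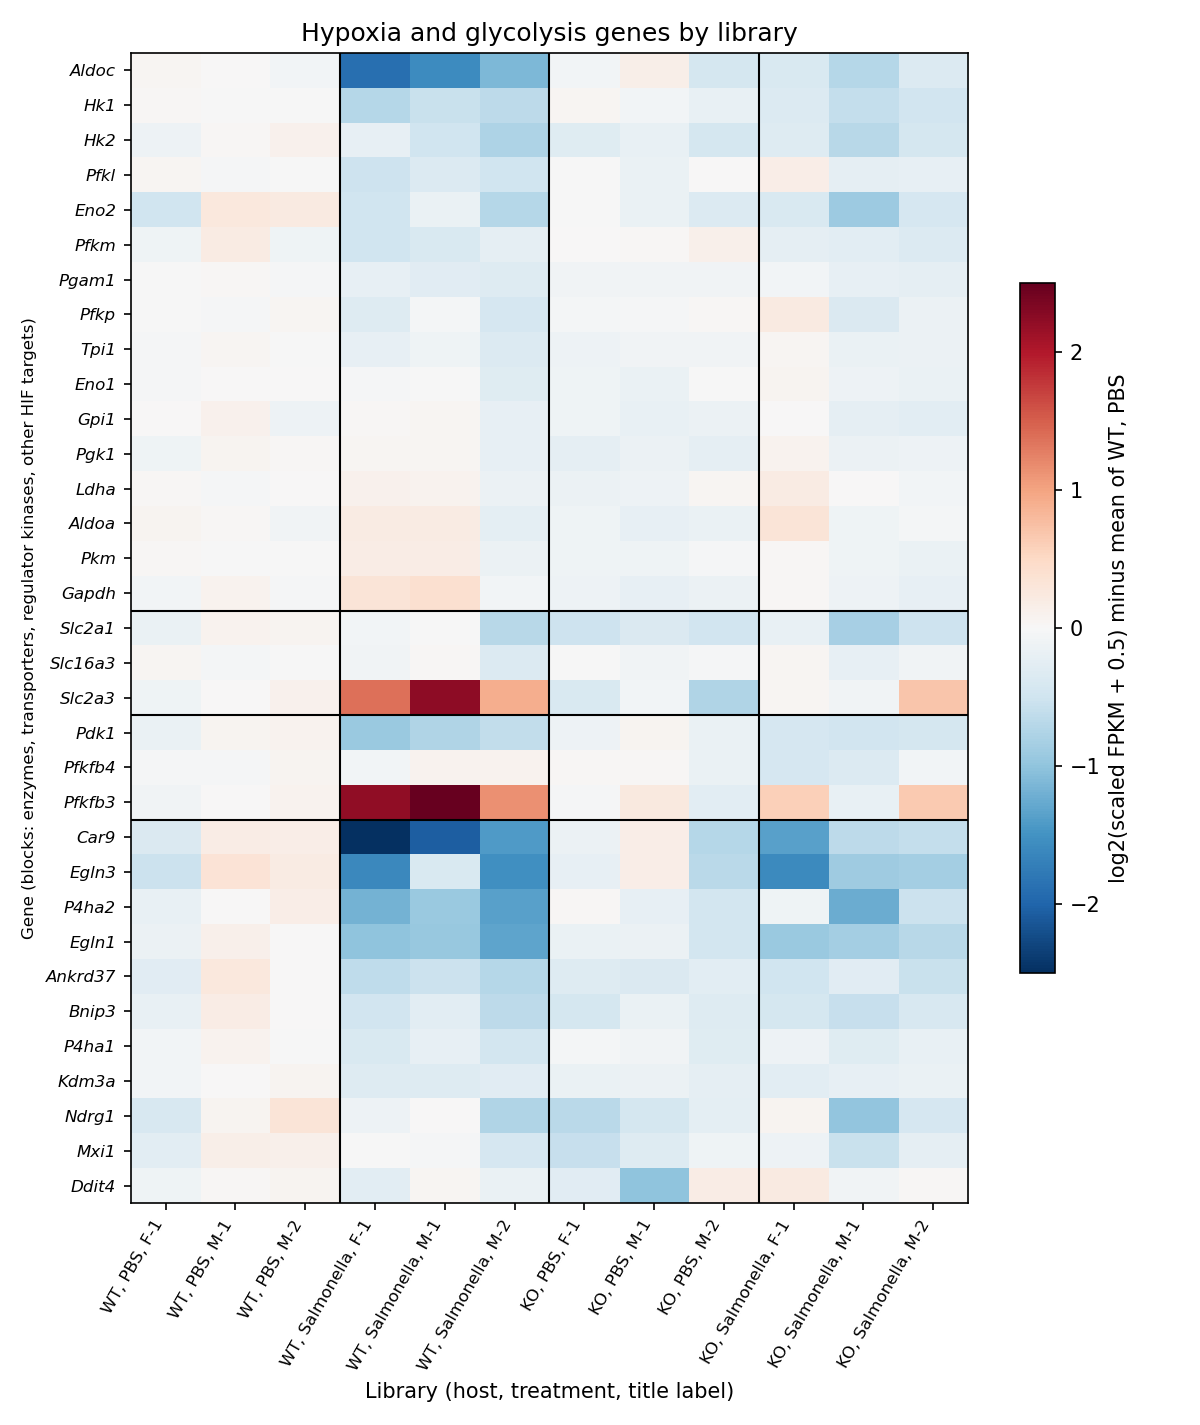
Each row is a gene and each column a library. Colour gives log2(scaled FPKM + 0.5) minus the mean of wild-type hosts given PBS, and lines separate the 4 gene roles and the 4 groups. The 3 columns of wild-type hosts given Salmonella are blue for Aldoc, Hk1, Pdk1, Car9, P4ha2 and Egln1 and red for Pfkfb3 and Slc2a3, and close to 0 for most of the abundant enzymes.

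Of the enzymes, both hexokinases, 2 of the 3 phosphofructokinase genes, Aldoc and Pgam1 fell. Hk1, the hexokinase that is bound to mitochondria in many tissues and traps glucose as its phosphate, was at 36.8, 35.9 and 35.9 with PBS and at 21.7, 24.6 and 22.9 with Salmonella. No library of one group reached the other, and Hk1 fell by 0.64 on the log2 scale (SE 0.0857, adjusted p = 0.000858). Hk2, the hexokinase that is induced in tumours, went from 35.9, 40.1 and 42.8 to 34.01, 27.8 and 23.00, without overlap, and fell by 0.49 (SE 0.14, adjusted p = 0.0194). Together both hexokinases summed to 75.8 ± 3.01 scaled FPKM (SD, n = 3) with PBS and 51.4 ± 5.01 with Salmonella.

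Phosphofructokinase, which commits sugar to glycolysis, is built from the products of Pfkl, Pfkm and Pfkp. The liver-type gene Pfkl was at 102, 96.3 and 98.1 with PBS and at 68.5, 77.5 and 69.7 with Salmonella. Its groups were well separated and it fell by 0.46 (SE 0.109, adjusted p = 0.00925). The muscle-type gene Pfkm went from 20.3, 25.3 and 20.4 to 15.4, 16.7 and 18.6 and fell by 0.37 (SE 0.1, adjusted p = 0.0165). Here the lowest PBS libraries were close to the highest Salmonella library. The platelet-type gene Pfkp had a log2 change of -0.26 that did not pass (adjusted p = 0.138). The 3 genes summed to 167, 166 and 165 in the PBS libraries and 119.6, 138 and 122 in the Salmonella libraries. Pfkl made up 59.6 ± 1.45% and 56.9 ± 0.553% of these sums (SD, n = 3). These shares did not overlap between the groups.

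Aldoc, the aldolase of brain, had the largest log2 change of the 16 enzymes. It was at 4.81, 4.68 and 4.40 with PBS and at 0.879, 1.23 and 1.85 with Salmonella, and fell by 1.53 (SE 0.197, adjusted p = 0.000788). The highest Salmonella library, M-2, was below the lowest PBS library. Aldoc is a small part of the aldolase RNA: its share of the Aldoa and Aldoc sum was 0.790 ± 0.0120% with PBS and 0.230 ± 0.128% with Salmonella (SD, n = 3). Pgam1, the phosphoglycerate mutase, was at 424, 434 and 416 and at 367, 348 and 341. It fell by 0.27 (SE 0.089, adjusted p = 0.0345), a small step between groups that did not overlap. The Pgam1 call was lost, with all libraries kept, when these were scaled by the median of ratios.

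Some of these calls were lost when single libraries were left out, although the changes kept their direction, at -0.49 to -0.44 for Hk2, -0.36 to -0.26 for Pfkm and -0.30 to -0.25 for Pgam1 in the fits that follow. Hk2 lost its call without M-1 or M-2 of the PBS group (adjusted p = 0.055 and 0.0728) and without M-1 of the Salmonella group (0.0553). Pfkm lost it without M-1 of the PBS group (0.0653) and without F-1 or M-1 of the Salmonella group (0.0695 and 0.0506). Pgam1 lost it without any 1 of the 3 PBS libraries (0.0843, 0.102 and 0.0793 for F-1, M-1 and M-2) and without F-1 or M-1 of the Salmonella group (0.0508 and 0.0902), as it did without M-1 or M-2 of the knockout Salmonella group, which enters through the shared spread (0.0519 and 0.0503).

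The other 10 enzymes did not pass. Lactate dehydrogenase, Ldha, was at 534, 519 and 527 with PBS and 569.8, 559.5 and 478 with Salmonella. Its groups overlapped, and the 95% interval of its log2 change was -0.23 to 0.27. The changes of the other 9 ran from -0.46 for Eno2, the enolase of neurons, to 0.22 for Gapdh. Between these lay Pfkp, Tpi1, Eno1, Gpi1, Pgk1, Aldoa and Pkm, of which Tpi1 and Pfkp did not overlap between groups. Tpi1, the triose phosphate isomerase, had a change of -0.22 (adjusted p = 0.15) and Gapdh, the dehydrogenase of the next step, a change of 0.22 (adjusted p = 0.159).

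The calls were uneven over the range of levels when split at 100 scaled FPKM. This cut was not set in advance, and Pfkl, at a mean of 98.8 with PBS, lay close to it. Of the 9 enzymes above 100 scaled FPKM with PBS (Gpi1, Aldoa, Tpi1, Gapdh, Pgk1, Pgam1, Eno1, Pkm and Ldha), 1 was lower, with changes from -0.27 to 0.22. Of the 7 at or under 100 (Hk1, Hk2, Pfkl, Pfkp, Pfkm, Aldoc and Eno2), 5 were lower, with changes from -1.53 to -0.26. Of all tested genes 17.8% were lower. Nearly the same split follows sequence copies: 9 enzymes share at least 95% identity over at least 300 bases with a transcript of another gene (77 such genes for Gapdh, 4 for Pgk1, 3 each for Eno1 and Ldha), and 1 of these 9 was lower, against 5 of the 7 without. The values of those 9 are less certain, because fragments shared with copies could have been counted elsewhere or not at all. Level and copies cannot be told apart here. The sum over all 16 enzymes was 6461, 6692 and 6494 with PBS and 6538, 6636 and 5479 with Salmonella, and these overlapped.

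Of the 3 transporters 1 passed the test. Slc2a1 encodes GLUT1, the main glucose transporter of most tumour cells, and was at 163, 193 and 191 with PBS and 172, 179.7 and 112 with Salmonella. Slc16a3 encodes MCT4, which exports lactate, and was at 226, 210.1 and 218 and 204, 223 and 171. For both the groups overlapped, and the log2 changes of -0.26 (95% interval -0.66 to 0.15) and -0.13 (-0.37 to 0.10) did not pass. Slc2a3 encodes GLUT3, a high-affinity glucose transporter of neurons and white blood cells, and was low with PBS at 0.587, 0.672 and 0.755. With Salmonella it was at 2.55, 5.01 and 1.69, above every PBS library and highest in M-1. It rose by 1.51 on the log2 scale (SE 0.311, adjusted p = 0.00516).

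Among the kinases, Pfkfb3 makes fructose 2,6-bisphosphate, the strongest known activator of phosphofructokinase. It was at 8.73, 9.32 and 9.93 with PBS and at 45.2, 63.8 and 21.2 with Salmonella, where all 3 libraries were above all PBS libraries and M-1 was the highest. It rose by 2.03 (SE 0.353, adjusted p = 0.00342), the largest log2 rise of the 33 genes. Its relative Pfkfb4 was at 3.60 to 3.91 and 3.54 to 3.96 (change 0.033, adjusted p = 0.841). Pdk1, a kinase that switches off pyruvate dehydrogenase and so keeps pyruvate out of the citric acid cycle, went from 31.5, 36.9 and 37.8 to 18.3, 20.8 and 22.9 and fell by 0.76 (SE 0.102, adjusted p = 0.000858).

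Both genes that rose are known to be expressed by neutrophils too, and neutrophil markers moved with them. The summed level of 10 markers (S100a8, S100a9, Retnlg, Cxcr2, Csf3r, Mmp8, Mmp9, Ly6g, Ngp and Camp) was 26.7, 16.6 and 17.6 with PBS and 3565, 21820 and 2706 with Salmonella in wild-type hosts, and the levels of all 10 were above those with PBS. Of the 10, 5 (Retnlg, Cxcr2, Ly6g, Ngp and Camp) passed the filter on low values only with the help of Salmonella libraries, so the number that passed the test is no support. The library with the highest sum, M-1, also had the highest Pfkfb3 and Slc2a3, and M-2 was lowest of the 3 for all of these. This order is not particular to neutrophils. Summed endothelial markers (136, 112 and 89.3 in M-1, F-1 and M-2) and fibroblast and pericyte markers (2259.9, 2181 and 1434) had it too. The sums of skeletal muscle and red cell markers were highest in F-1 and lowest in M-2. None of the 10 neutrophil markers was at 0 in every library, and their part in the rise of Pfkfb3 and Slc2a3 was not tested.

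The 11 other HIF targets all had log2 changes below 0, of which 8 passed. Car9, a carbonic anhydrase at the cell surface that is widely used as a marker of hypoxia, was at 54.00, 79.7 and 78.2 with PBS and at 11.7, 16.3 and 25.6 with Salmonella. Every Salmonella library was below every PBS library, and the fall of 2.0 on the log2 scale (SE 0.322, adjusted p = 0.00256) was the largest of the 33 genes. P4ha2 and P4ha1 encode alpha subunits of the collagen prolyl hydroxylase. P4ha2 went from 76.6, 88.6 and 98.8 to 38.6, 45.9 and 33.9, without overlap, and fell by 1.15 (SE 0.243, adjusted p = 0.00646). P4ha1 went from 64.95, 72.9 and 67.96 to 52.3, 59.6 and 49.7, a smaller step without overlap, and fell by 0.35 (SE 0.0971, adjusted p = 0.018).

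The prolyl hydroxylases that mark HIF for destruction are themselves HIF targets. Egln1 (PHD2), the main one in most cells, was at 66.04, 80.7 and 74.2 with PBS and at 36.4, 37.7 and 29.2 with Salmonella and fell by 1.09 (SE 0.124, adjusted p = 0.000418). Its lowest PBS library was far above its highest Salmonella library, and its adjusted p was the smallest of the 33 genes. Egln3 (PHD3) went from 17.6, 32.7 and 29.6 to 8.08, 19.8 and 8.58 and fell by 1.17 (SE 0.374, adjusted p = 0.0343). Its groups overlapped, since M-1 with Salmonella was above F-1 with PBS.

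Ankrd37, an ankyrin repeat gene, was at 26.7, 39.3 and 32.7 with PBS and at 20.8, 22.2 and 19.6 with Salmonella and fell by 0.63 (SE 0.123, adjusted p = 0.00411). Bnip3, which sends mitochondria to autophagy, went from 236, 307 and 269.6 to 192, 223 and 172 and fell by 0.47 (SE 0.13, adjusted p = 0.0174). Kdm3a, a histone demethylase, had the tightest groups of the 3, at 22.1, 23.3 and 24.5 and 18.6, 18.4 and 19.2, and fell by 0.31 (SE 0.0676, adjusted p = 0.00671). None of these 3 overlapped between groups. Ndrg1, Mxi1 and Ddit4, an inhibitor of mTOR signalling, did not pass, with changes of -0.29, -0.15 and -0.13 and 95% intervals of -0.92 to 0.34, -0.51 to 0.21 and -0.63 to 0.38.

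Bnip3, P4ha1 and Egln3 lost their calls when single libraries were left out, with changes of -0.47 to -0.37, -0.35 to -0.30 and -1.07 to -0.95 in those fits. Without M-1 of the PBS group the adjusted p was 0.0718, 0.0677 and 0.109 in that order, without M-2 of the PBS group 0.0537, 0.0518 and 0.102, and without F-1 of the Salmonella group 0.054, 0.0602 and 0.132. Egln3 also lost it without M-2 of the Salmonella group (0.082). Without M-1 of the PBS group 11 of the 33 genes passed in place of 17. With the 2 groups fitted alone 11 passed as well, and with the libraries of title letter M alone, 2 per group, 8 did: Aldoc, Hk1, Hk2, Pdk1, Car9, Egln1, P4ha2 and Ankrd37, all lower.

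Markers of other cell types moved in the same libraries. In wild-type hosts the summed level per library of 8 endothelial markers was 39.6 to 53.8 with PBS and 89.3 to 136 with Salmonella, with 7 of 8 higher, and that of 10 skeletal muscle markers was 3.44 to 7.41 and 45.8 to 117, with 6 of 8 tested higher. Red cell markers were at 27.9 to 63.6 and 144 to 459 (5 of 5 tested higher), and fibroblast and pericyte markers at 952 to 1174 and 1434 to 2259.9 (3 of 8 higher and 1 lower). The 8 cycling cell markers were at 423 to 472 with PBS and 345 to 392 with Salmonella (6 of 8 lower), and macrophage and monocyte markers at 804 to 1428 and 564 to 1103 (1 higher and 2 lower of 10). Beside these counts, 18.2% of all tested genes were higher and 17.8% lower in wild-type hosts. Of the markers counted as higher here, Tek, Myh1, Tnnc2, Mb and Alas2 passed the filter on low values only with the help of Salmonella libraries. The part of these cell types in the lower levels of HIF targets and enzymes was not tested.

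**Figure D2:**
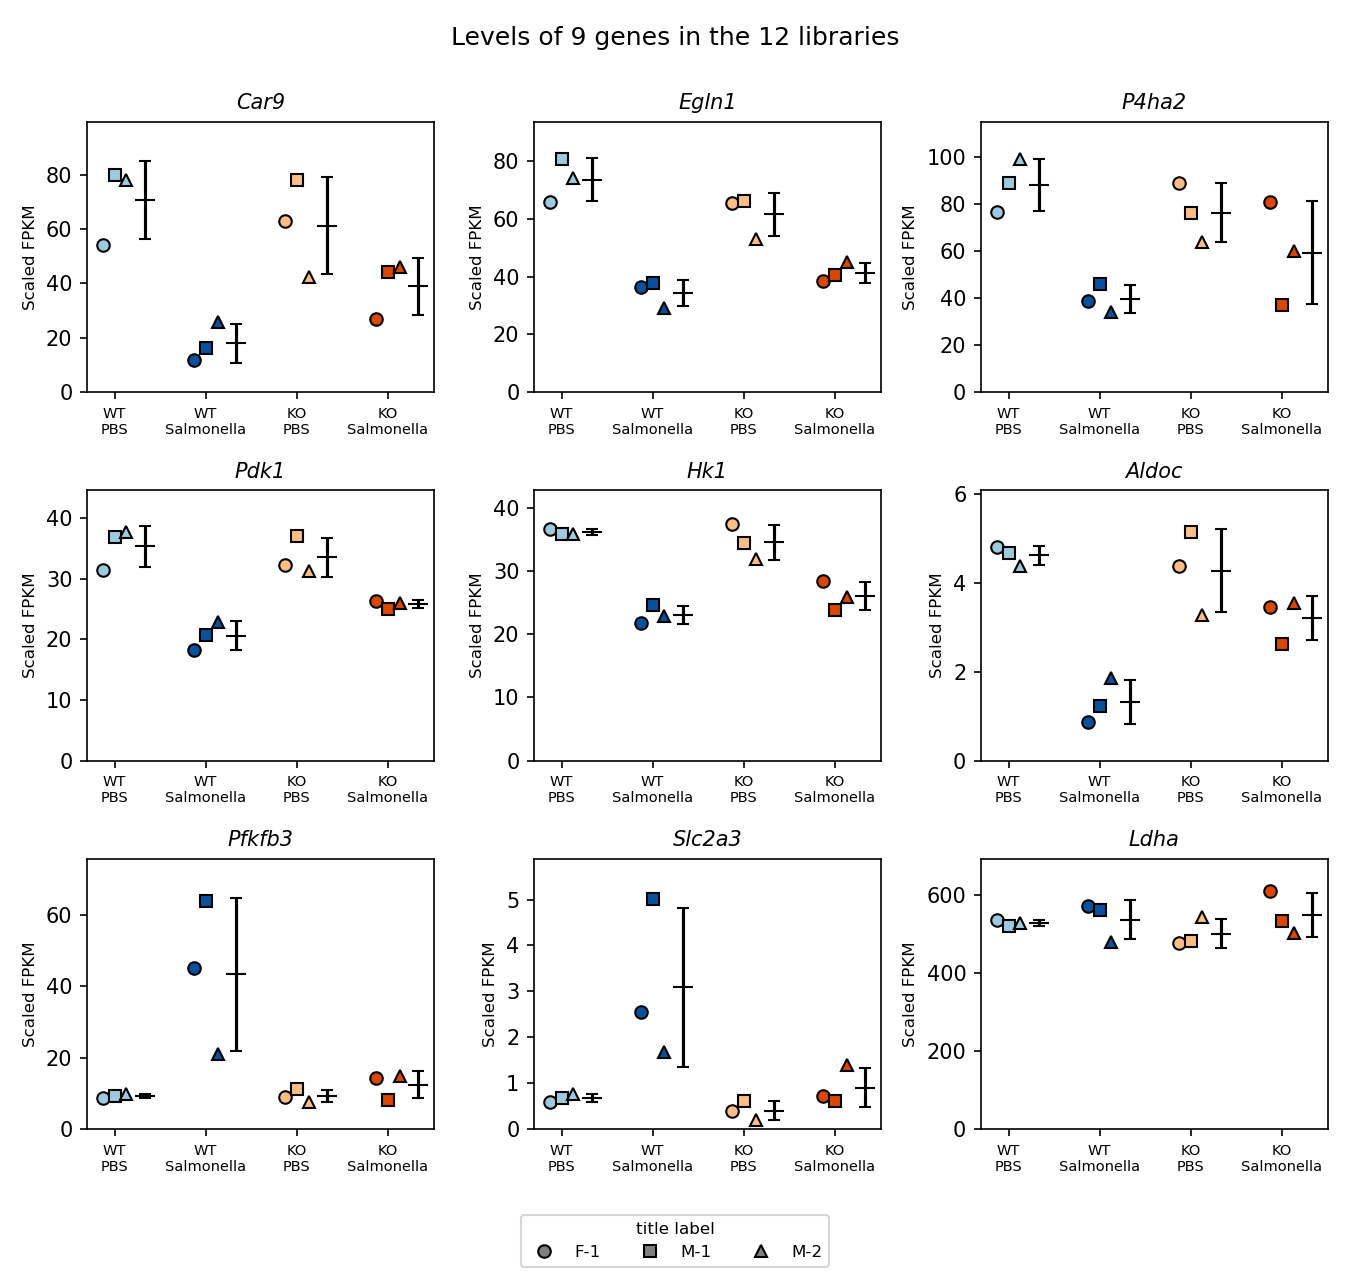
Scaled FPKM of 9 genes in the 12 libraries, with group means and SD (n = 3) beside the points and marker shapes for the title labels. Car9, Egln1, P4ha2, Pdk1, Hk1 and Aldoc are lower in all 3 libraries of wild-type hosts given Salmonella than in those given PBS, Pfkfb3 and Slc2a3 are higher, and Ldha overlaps.

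In knockout hosts none of the 33 genes passed the test of Salmonella against PBS, where 0.773% of all tested genes (94 genes) passed. The nearest were Hk1, Egln1 and Pdk1, which were without overlap and lower after Salmonella. With limma 5 of the 33 had an unadjusted p under 0.05, beside 19.2% of all tested genes, and with voom on the recovered fragments 0 passed as well. The groups did not overlap for 8 of the 33 genes, beside 29.4% of all tested genes. The medians were -0.021 for the enzymes and -0.13 for the other HIF targets, and -0.0014 for all tested genes.

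Among the HIF targets in knockout hosts, Egln1 was at 65.5, 66.3 and 52.99 with PBS and 38.3, 40.6 and 45.05 with Salmonella, a change of -0.57 (SE 0.124, adjusted p = 0.0624). Egln3 was at 22.2, 28.9 and 15.9 with PBS and 8.18, 13.7 and 14.1 with Salmonella (change -0.87, adjusted p = 0.242). Both prolyl hydroxylase genes were without overlap between treatments. Car9 was at 62.9, 78.2 and 42.5 with PBS and 26.8, 44.03 and 45.8 with Salmonella (change -0.64, adjusted p = 0.302). P4ha2 was at 88.8, 76.2 and 63.8 with PBS and 80.9, 36.9 and 59.8 with Salmonella (change -0.42, adjusted p = 0.371). For Car9 the M-2 library with PBS lay among the Salmonella libraries, and for P4ha2 the F-1 library with Salmonella lay among the PBS libraries. Ankrd37 was at 25.8, 25.3 and 26.9 with PBS and 22.8, 26.7 and 22.01 with Salmonella. Bnip3 was at 198, 239.7 and 214 and then 199, 179 and 204. Both overlapped. P4ha1 was at 65.8, 64.8 and 55.3 with PBS and 62.8, 55.8 and 59.997 with Salmonella. Kdm3a was at 20.8, 21.00 and 19.8 and then 19.3, 20.01 and 20.6. Both of these overlapped as well.

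Of the enzymes in knockout hosts, Hk1 was at 37.4, 34.4 and 31.9 with PBS and 28.4, 23.9 and 25.9 with Salmonella. It had the smallest adjusted p of the 33 genes (change -0.40, SE 0.0857, adjusted p = 0.0574). Pfkm was at 21.9, 22.4 and 23.9 with PBS and 18.7, 18.02 and 17.1 with Salmonella (change -0.33, adjusted p = 0.118). Neither gene overlapped between treatments. Hk2 was at 32.1, 34.7 and 28.9 with PBS and 31.6, 24.3 and 28.9 with Salmonella. Pfkl was at 98.4, 87.9 and 98.9 and then 111, 84.4 and 85.6. Both overlapped, and F-1 with Salmonella was the highest of the 6 libraries for Pfkl. Aldoc was at 4.40, 5.15 and 3.29 with PBS and 3.45, 2.64 and 3.55 with Salmonella. Pgam1 was at 401, 399 and 399 and then 403, 367 and 364. Ldha was at 475, 483 and 543 with PBS and 609.8, 532 and 501 with Salmonella, with a 95% interval of its change of -0.12 to 0.38. These 3 overlapped between treatments. The 3 phosphofructokinase genes summed to 162 ± 7.33 with PBS and 154 ± 24.3 with Salmonella (SD, n = 3).

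Of the kinases and transporters in knockout hosts, Pdk1 was at 32.2, 37.2 and 31.2 with PBS and 26.4, 25.1 and 26.01 with Salmonella, without overlap (change -0.37, adjusted p = 0.104). Pfkfb3 was at 9.10, 11.1 and 7.68 with PBS and 14.3, 8.10 and 14.95 with Salmonella. Slc2a3 was at 0.398, 0.612 and 0.195 and then 0.709, 0.607 and 1.39. Both overlapped, and the 95% intervals of their changes were -0.42 to 1.15 and -0.057 to 1.30. Slc2a1 was at 126, 141 and 129.5 with PBS and 159, 103 and 127 with Salmonella. Slc16a3 was at 216, 204 and 212 and then 227, 188 and 205. Both overlapped as well.

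In these hosts neutrophil markers summed to 17.4, 15.2 and 15.5 with PBS and 831, 526 and 929 with Salmonella. Of the 10, 6 were called higher, beside 0.46% of all tested genes. This count is no support, since 5 of the 10 passed the filter on low values only with the help of Salmonella libraries. Endothelial markers were at 38.2 to 55.8 and 52.7 to 76.8 and cycling cell markers at 478 to 486 and 363 to 445, with 0 of 8 called in each list. The Salmonella library F-1 stood out by skeletal muscle markers, at 125, 4.94 and 12.7 over the 3 libraries, and it also held the highest sum of the 16 enzymes in its group (6945, 5934 and 5891). The part of these cell types in the values was not tested.

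The count of 0 in knockout hosts moved with single libraries. Without M-2 of the wild-type Salmonella group, which enters through the shared spread, Egln1, Hk1 and Pdk1 passed (adjusted p = 0.0184, 0.0253 and 0.0418). Without M-2 of the knockout PBS group 2 genes passed, Egln1 and Hk1 (adjusted p = 0.0256 and 0.0321), and with the 2 knockout groups alone 1, Egln1 (adjusted p = 0.0477).

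**Figure D3:**
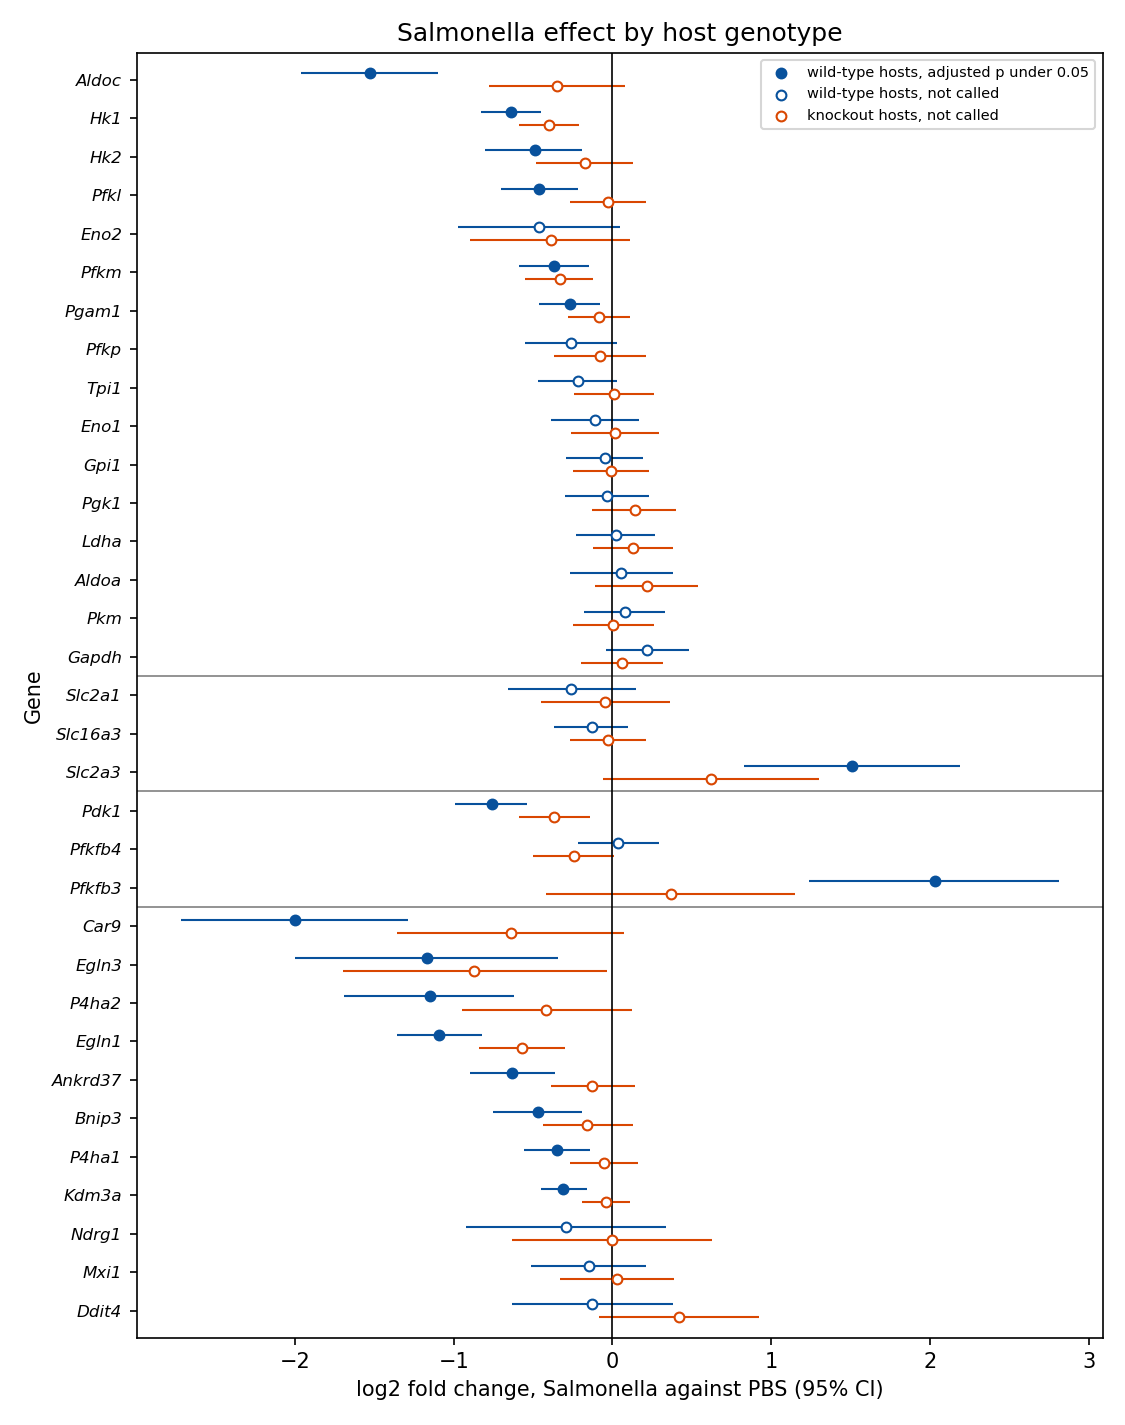
The log2 change from PBS to Salmonella of each gene, with its 95% interval, in wild-type hosts (blue) and knockout hosts (orange). Filled points passed the test. The 15 genes that were lower in wild-type hosts all lie below 0 in knockout hosts as well, from -0.87 to -0.031. Of all 12164 tested genes, 6115 had a change below 0 in knockout hosts. None of the 33 passed there.

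Set side by side, the 15 genes that were lower in wild-type hosts had knockout changes from -0.87 to -0.031, all below 0 and all smaller in size than in wild-type hosts. They were chosen by their wild-type values, which favours a larger wild-type size. Of all 12164 tested genes, 6115 had a knockout change below 0. How many of all tested genes had a smaller change in knockout hosts was not counted. The difference between both responses was tested as an interaction, the knockout change minus the wild-type change. No gene of the 33 passed it, where 0.0247% of all tested genes (3 genes) passed, and 8 of the 33 had an unadjusted p under 0.05 in limma, beside 14.7% of all tested genes. Aldoc had the smallest p, with a difference of 1.17 (SE 0.279, adjusted p = 0.206). Pfkfb3 had a difference of -1.66 (adjusted p = 0.249) and Car9 one of 1.36 (adjusted p = 0.268). The other 5 were Egln1 (0.52), Ankrd37 (0.50), Pfkl (0.43), Pdk1 (0.40) and Kdm3a (0.27). With voom 0 genes passed. Without M-2 of the wild-type Salmonella group 4 passed: Aldoc (1.38, adjusted p = 0.00486), Pfkfb3 (-2.10, adjusted p = 0.00507), Car9 (1.65, adjusted p = 0.0302) and Pdk1 (0.47, adjusted p = 0.0354). These 4 calls thus depend on leaving out that library.

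Between genotypes under Salmonella, 3 of the 33 genes passed, a share near the 9.02% of all tested genes. Aldoc was higher in knockout hosts, with all 3 libraries (2.64 to 3.55) above those of wild-type hosts (0.879 to 1.85), by 1.05 on the log2 scale (SE 0.197, adjusted p = 0.0161). Pfkfb3 was lower in knockout hosts, at 8.10 to 14.95 against 21.2 to 63.8, with a change of -1.67 (SE 0.353, adjusted p = 0.0245). Slc2a3 was lower as well, at 0.607 to 1.39 against 1.69 to 5.01, with a change of -1.29 (SE 0.311, adjusted p = 0.0311). None of the 3 overlapped. Car9 and Pfkl, without overlap either, lay just outside the threshold with changes of 1.13 (adjusted p = 0.0536) and 0.37 (adjusted p = 0.0535). Summed neutrophil markers were also lower in knockout hosts, at 526 to 929 against 2706 to 21820, with 9 of 10 called lower. Also lower were 6 of 8 endothelial, 5 of 5 tested red cell, 3 of 8 fibroblast and pericyte and 2 of 8 tested skeletal muscle markers, while 1 of 8 cycling cell markers was higher. Of all tested genes 5.67% were lower and 3.35% higher. In these lists 5 neutrophil markers and Tek, Myh1, Tnnc2, Mb and Alas2 passed the filter on low values only with the help of Salmonella libraries. The counts of those lists are therefore no support. The part of these cell types in the 3 calls was not tested.

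All 3 of these calls ended when single libraries were left out: F-1 or M-1 of wild-type hosts, or M-1 or M-2 of knockout hosts, each time with 0 genes passing. The adjusted p of Aldoc was then 0.0566 to 0.0639, that of Pfkfb3 0.0608 to 0.103 and that of Slc2a3 0.0546 to 0.114, and Slc2a3 also lost its call without F-1 of knockout hosts (0.0788). The changes in these fits were 0.87 to 1.17 for Aldoc, -1.83 to -1.33 for Pfkfb3 and -1.52 to -0.92 for Slc2a3. Without M-2 of wild-type hosts 9 genes passed. Among these were Aldoc, Pfkfb3 and Slc2a3 and, of the genes with an unadjusted p under 0.05 in the full data, Car9 (1.42, adjusted p = 0.0082), Pdk1 (0.40, adjusted p = 0.0109), Pfkl (0.35, adjusted p = 0.0348) and Gapdh (-0.47, adjusted p = 0.00169), a gene with many near-identical copies.

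Between genotypes under PBS, 0 of the 33 genes passed in limma, as did 0% of all tested genes, and 0 passed with voom. An unadjusted p under 0.05 was found for 5 of the 33, beside 1.45% of all tested genes, all with lower values in knockout hosts: Kdm3a (-0.18), Ankrd37 (-0.32), Slc2a1 (-0.46), Bnip3 (-0.31) and Hk2 (-0.31), each with an adjusted p of 1. The log2 changes of all 11 other HIF targets were between -0.44 and -0.15, and those of the 16 enzymes between -0.31 and 0.055, beside a median of 0.002 over all tested genes.

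Enzymes and the 11 other HIF targets were then set against each other within each library. The measure was the mean over genes of log2(scaled FPKM + 0.5) minus the mean of wild-type hosts given PBS. In wild-type hosts given Salmonella the 16 enzymes were at -0.26, -0.19 and -0.40 and the 11 other HIF targets at -0.78, -0.51 and -0.82. The targets were below the enzymes in each of these 3 libraries, by 0.52, 0.32 and 0.42. In wild-type hosts given PBS the targets minus the enzymes were -0.19, 0.09 and 0.10, which does not overlap. In knockout hosts the same difference was -0.17, -0.12 and -0.20 with PBS and -0.44, -0.29 and -0.18 with Salmonella, which overlaps. Relative to wild-type hosts given PBS, the 11 targets were thus below the enzymes in all 6 knockout libraries too. The genes were chosen by name with earlier results in view, so these means are a description without a test.

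**Figure D4:**
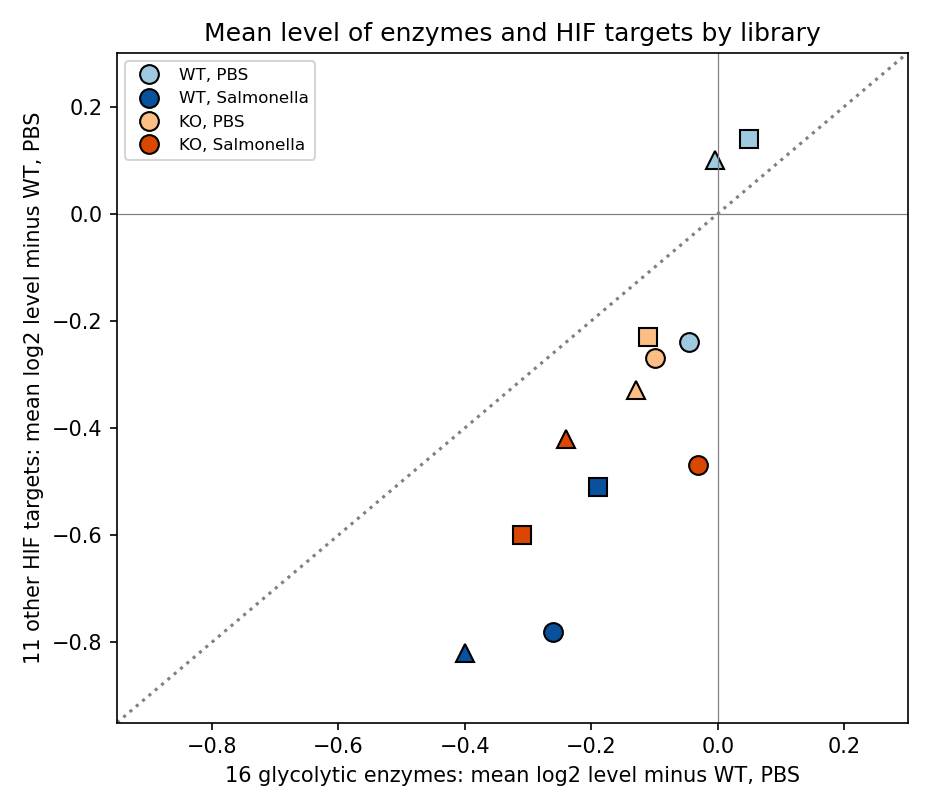
Each point is a library (circle F-1, square M-1, triangle M-2). The x axis is the mean log2 level of the 16 enzymes and the y axis that of the 11 other HIF targets, both minus the mean of wild-type hosts given PBS; on the dotted line both are equal. The 3 libraries of wild-type hosts given Salmonella lie below the line, with enzymes at -0.40 to -0.19 and targets at -0.82 to -0.51, and all 6 knockout libraries lie below it as well.

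Sums of scaled FPKM are dominated by the most abundant genes. The 11 other HIF targets summed to 1161 ± 144 in wild-type hosts with PBS and 838 ± 110.1 with Salmonella, and to 942 ± 52.4 and 913 ± 109.7 in knockout hosts (SD, n = 3). The 16 enzymes summed to 6549 ± 125 and 6218 ± 642 in wild-type hosts and to 6044 ± 123 and 6257 ± 596 in knockout hosts. In wild-type hosts the 3 sums of targets with Salmonella were all below the 3 with PBS, whereas the enzyme sums overlapped.

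Of 13 listed genes that make or control HIF, 11 were tested, and in wild-type hosts 3 were higher and 2 lower, beside 18.2% and 17.8% of all tested genes. Epas1, which encodes the alpha subunit HIF-2 alpha and is known from endothelium, went from 1.79, 1.32 and 2.33 to 17.1, 13.8 and 6.65 and rose by 2.42 (SE 0.37, adjusted p = 0.00187). Hif1a, the alpha subunit of HIF-1, went from 37.95, 41.8 and 49.97 to 93.3, 91.4 and 55.8 and rose by 0.85 (SE 0.178, adjusted p = 0.00531). Neither overlapped, and for both M-2 was the lowest of the Salmonella libraries. Hif1an, an asparagine hydroxylase that restrains HIF, went from 15.02, 14.9 and 15.2 to 9.54, 8.10 and 12.8 and fell by 0.57 (SE 0.13, adjusted p = 0.00793). In knockout hosts none of the 11 passed. HIF activity is set mainly by the stability of the alpha subunit protein, which RNA does not measure.

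HIF targets beyond the 33 genes went both ways in wild-type hosts. Of 37 tested, 11 were higher and 15 lower, beside 18.2% and 17.8% of all tested genes, with a median of -0.14. Edn1, counted as higher, passed the filter on low values only through Salmonella libraries. Kdm4b, a histone demethylase like Kdm3a, went from 17.2, 18.9 and 17.8 to 8.76, 8.80 and 10.1 and fell by 0.93 (SE 0.084, adjusted p = 0.000124). Angptl4, a secreted inhibitor of lipoprotein lipase, went from 8.20, 6.35 and 7.87 to 58.7, 56.7 and 27.9 and rose by 2.53 (SE 0.262, adjusted p = 0.000415). Hmox1, the haem oxygenase, which also answers to haem and oxidative stress, went from 208, 226 and 223 to 1305, 1113 and 625 and rose by 2.14 (SE 0.24, adjusted p = 0.000416). The groups of these 3 genes were far apart, and none of the 37 passed in knockout hosts.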

How the data were processed

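RNA-seq of MC38 tumours was analysed in 12 libraries, in 4 groups of 3 read from the genotype and treatment labels. Total RNA (TRIzol) was turned into libraries with the VAHTS Universal V6 kit, per the labels' protocols. The submitters' processing notes name fastp, HISAT2 and HTSeq, with neither versions nor roles; build, annotation and strand setting: not given in the sources used here. Each library came as its own table, in which the authors deposited FPKM, normalized by gene length and library total; no header or label states this unit, which was inferred from the values. For all 12164 tested genes (100%) the FPKM were whole fragments within 0.01 fragments at 1 gene length, which gave the depths; 1 fragment in a 1 kb gene is worth 0.0258 to 0.0328 FPKM.

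FPKM were divided by trimmed-mean scaling factors (30% of ratios and 5% of levels trimmed), and log2(scaled FPKM + 0.5) was fitted with limma 3.58.1 (R 4.3.3; trend and robust) on the 12 libraries together (4 group means, 8 residual degrees of freedom). Fold changes are on this scale, which understates changes of low genes. Genes had at least 0.5 FPKM in at least 3 libraries, and tests are two-sided. Moderated p-values were adjusted by Benjamini-Hochberg over the tested genes, with a threshold of 0.05. The fit was tested on simulated data.

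All 33 genes are named. Values per library are given for genes that passed in any of the 5 comparisons, the transporters, Ldha and the 2 with the smallest p per role; of further pathway lists, the 3 whose p was smallest in wild-type hosts are named. The members and lists were chosen with earlier results of these data known. Promoters came from RefSeq (GRCm38.p6), and transcripts for the search of near-identical copies (blastn 2.17.0, at least 95% identity over 300 bases) from GENCODE. The title marks (F-1, M-1, M-2) are not explained in the labels and were not used to pair libraries. Within each group, no 2 libraries were alike enough to be 1 library deposited again. Alternatives were other scalings, filters and pseudocounts (0.1 and 1), a fit of the compared groups alone, the title letter or the replicate label as covariate, voom on the recovered fragments, each library left out and, chosen after seeing the data, only libraries with title letter M.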

Additional observations from a re-analysis of the deposited data

How the results depend on the processing

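Of the 17 genes called in wild-type hosts, 7 kept the call in all 23 alternatives and 10 lost it in at least 1. Kdm3a, Pfkfb3, Pfkl and Slc2a3 lost it only with the title letter M libraries, where 8 genes passed. Pgam1 was the only gene of the 17 that lost it with median-of-ratios scaling. With only the groups compared 11 passed in wild-type hosts, 1 in knockout hosts and 0 between genotypes under Salmonella. With FPKM as deposited, which moves the median of all genes from -0.0255 to -0.186 in wild-type hosts and from 0.0218 to 0.161 between genotypes under Salmonella, 22 genes passed in wild-type hosts (2 higher and 20 lower), 1 in knockout hosts and 8 between genotypes under Salmonella; of all tested genes 40% passed in wild-type hosts (27.7% lower), 0.526% in knockout hosts and 11.7% under Salmonella. With title letter M alone 0 passed between genotypes under Salmonella. Over the fits that leave out 1 library, the counts were 11 to 17 in wild-type hosts, 0 to 3 in knockout hosts, 0 in each under PBS, 0 to 9 under Salmonella and 0 to 4 for the interaction. Libraries with the same title mark did not deviate together in every pair (correlations of their deviations from group means -0.33 to 0.40); with the replicate block the counts were 17 in wild-type hosts, 0 in knockout hosts, 0 under PBS, 4 under Salmonella and 0 for the interaction. Signs turned only for small changes that had not passed. With FPKM as deposited the wild-type changes were -0.12 for Aldoa, -0.10 for Pkm, -0.16 for Ldha and -0.12 for Pfkfb4, relative to the lower median. With title letter M alone the change of Ldha was -0.015. Leaving out 1 library gave -0.11 to 0.03 for Gpi1, -0.022 to 0.20 for Aldoa, -0.089 to 0.048 for Pgk1 and -0.025 to 0.10 for Ldha in wild-type hosts, and -0.16 to 0.037 for Pfkl in knockout hosts. The cause of these moves was not tested. Fits with fewer libraries have less power by construction, and the counts fell in some of these fits and rose in others. Slc2a3, Aldoc and Eno2 had the fewest fragments, down to 43 in a library.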

Other observations

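The routes that lead pyruvate and glucose away from lactate were measured in the same libraries. Of 14 genes of pyruvate entry into mitochondria, 2 were higher and 3 lower in wild-type hosts after Salmonella. Of all tested genes 18.2% were higher and 17.8% lower. The higher genes include Pdk4, whose test is set aside below, so the count is not compared with these shares. Pcx, pyruvate carboxylase, which makes oxaloacetate, went from 9.95, 10.4 and 10.4 to 6.46, 6.40 and 6.32 scaled FPKM and fell by 0.64 (SE 0.0831, adjusted p = 0.000788) in limma. In knockout hosts Pcx went from 9.58, 10.1 and 8.93 to 7.35, 6.45 and 6.36 and fell by 0.48 (SE 0.0831, adjusted p = 0.0308), the only gene of the 5 further pathway lists that passed there. Pdk4, a pyruvate dehydrogenase kinase like Pdk1, was at 0.0450, 0.00741 and 0.0225 with PBS and 2.89, 1.78 and 0.581 with Salmonella in wild-type hosts. It is counted among the 2 higher genes but reached the filter of 0.5 FPKM in 0 PBS libraries and 4 Salmonella libraries, so its test is not used. Pdp1, the phosphatase that undoes their action, went from a mean of 4.46 to 2.81 and fell by 0.57 (SE 0.172, adjusted p = 0.0237).

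Of the 7 genes of the pentose phosphate pathway, all had changes above 0 in wild-type hosts (0.012 to 0.42), but 1 passed, G6pdx, the first enzyme of the pathway, from a mean of 45.4 to 57.9 (change 0.35, adjusted p = 0.0156). Taldo1 and Tkt had changes of 0.42 and 0.36 (adjusted p = 0.0516 and 0.129). Of 11 tested other isozymes and transporters, 4 were higher and 1 lower, beside 18.2% and 17.8% of all tested genes. Pgam2, among the 11, did not pass the test and reached the filter on low values only with the help of Salmonella libraries. Slc16a1, the lactate transporter MCT1, rose by 0.58 (SE 0.124, adjusted p = 0.00565), Eno3, the enolase of muscle, by 0.48 (SE 0.101, adjusted p = 0.00571), and Tigar, which lowers fructose 2,6-bisphosphate, by 0.49 (SE 0.111, adjusted p = 0.00744). T and NK cell markers summed to 7.51 to 17.03 scaled FPKM per library with PBS and 2.16 to 9.23 with Salmonella in wild-type hosts, and adipocyte markers to 9.47 to 14.7 and 62.6 to 171; their part in these values was not tested.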
